A study of Mus musculus with 9 samples.

Results

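The genes described here are the mouse potassium and calcium channel genes, taken as the protein-coding genes whose symbol starts with Kcn or Cacn. The table held 54532 genes, of which 22046 were protein-coding and 120 met this rule, 94 of them Kcn genes and 26 Cacn genes. A channel gene was counted as detected when it had 10 or more counts in at least 3 of the 9 libraries, and 84 of the 120 were detected (67 Kcn and 17 Cacn genes). The tissue was the lambdoidal junction, where the facial processes meet and fuse to form the upper lip and primary palate. The embryos were C57BL/6J mice of embryonic day 10.5 (E10.5), 11.5 (E11.5) or 12.5 (E12.5), and each stage had 3 libraries, each made from the pooled tissue of several embryos. The labels name no mutation or treatment, and stage is the only difference between the groups that they give.

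Potassium channels let potassium leave the cell and set the resting membrane potential, while voltage-gated calcium channels open on depolarization and let calcium in, where it acts as a signal. A channel is built from a pore-forming subunit, often with accessory subunits that change its gating or its amount at the membrane. Inward rectifier (Kcnj) and L-type calcium (Cacna1c) channels are best known from heart and nerve, and variants of KCNJ2 and CACNA1C in people cause syndromes in which cardiac arrhythmia occurs together with facial or limb differences.

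The total count per library was between 16581009 and 20836804. E10.5 replicate 3 stood apart from the other 2 E10.5 libraries. Across 16363 genes, its deviation from the stage mean had a Spearman correlation with GC content of -0.546, against 0.438 and 0.469 for E10.5 replicates 1 and 2. Of the 62 channel genes with 10 or more counts in each E10.5 library, 11 were more than 1 log2 unit lower in replicate 3 than in the mean of replicates 1 and 2, and 4 were more than 1 log2 unit higher. The summed level of 6 endothelial markers was 112 CPM (counts scaled to library size) in that library and 287 and 281 CPM in the other 2, and that of 7 epithelial markers was 780 CPM against 426 and 487 CPM. For the genes described here, a log2 fold change from E10.5 that moved by more than 0.3 without that library, or a call that ended without it, is given both ways, except for genes at or under 3 counts in every E10.5 library, whose fitted change is no bound.

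The pore of a potassium channel holds a short signature, the selectivity filter, and its coding sequence is shown here for channel genes on which the results turn. The coding sequences of 119 of the 120 genes were searched in the GENCODE vM21 transcripts (Cacng8 had no complete coding sequence there) for 5 residues in a row, threonine or serine, valine or isoleucine, glycine, tyrosine or phenylalanine, and glycine. This pattern was found in 68 of 77 pore-forming Kcn genes, in 0 of 17 accessory or regulatory Kcn genes, in 0 of 25 Cacn genes and in 0.492% of 21527 protein-coding genes. The 9 pore-forming genes without it included Kcnd1, Kcnd2, Kcnd3, Kcnk1 and Kcnk7. After these 9 were seen, the pattern was widened to allow leucine at the positions of valine and tyrosine, and it then matched 77 of 77 pore-forming genes and 1.35% of all protein-coding genes. Two-pore (Kcnk) channels carry a selectivity filter in each of their pore domains, and the first pattern occurred 2 times in 11 of 14 Kcnk genes. The widened pattern occurred 2 times in 12 of 14 and only 1 time in Kcnk1 and Kcnk7. The 45 bases below are in GRCm38, 5′ to 3′ on the coding strand, each within 1 exon of the coding sequence, with the 15 bases of the signature in capitals.
Kcnj2 (rose by E11.5), chr11:111072192-111072236, plus strand: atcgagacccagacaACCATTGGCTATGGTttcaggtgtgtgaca
Kcna6 (rose by E11.5), chr6:126738632-126738676, minus strand: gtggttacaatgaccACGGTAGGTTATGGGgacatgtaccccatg
Kcnh2 (fell by E11.5), chr5:24325540-24325584, minus strand: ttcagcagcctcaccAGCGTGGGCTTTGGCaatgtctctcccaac
Kcnh3 (rose by E12.5), chr15:99232914-99232958, plus strand: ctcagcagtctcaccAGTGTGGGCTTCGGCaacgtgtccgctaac
Kcnk9 (peaked at E11.5, second pore), chr15:72512704-72512748, minus strand: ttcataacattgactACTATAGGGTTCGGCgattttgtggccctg
Kcnh2 and Kcnh3 belong to one family, and their levels moved in opposite directions between the stages.

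By mean level per kilobase of gene length, Cacng7 was the highest channel gene at each stage. In CPM, which is not divided by length, Cacna1g had the highest mean at each stage. Its means were 70.2, 240.9 and 290.8 CPM, against 62.1, 69.25 and 76.4 CPM for Cacng7. Per kilobase of gene length, averaged over the 9 libraries, the highest levels were those of Cacng7 (28.4 CPM per kilobase), Cacna1g (19.8), Cacnb3 (16.4), Cacng4 (12.1), Kcnj2 (6.50) and Kcnk1 (5.50). Cacng7 and Cacng4 encode transmembrane proteins that also regulate AMPA-type glutamate receptors, Cacna1g the pore of a T-type channel that opens at low voltage, and Cacnb3 a cytoplasmic subunit that carries the pore to the membrane. The order changed with stage. At E10.5 the highest means were those of Cacng7 (25.4 CPM per kilobase), Cacnb3 (13.6), Cacna1g (6.93), Kcnk1 (5.93), Cacng4 (5.50) and Kcnk5 (3.68), and Kcnj2 was at 1.95. At E12.5 they were those of Cacng7 (31.3), Cacna1g (28.7), Cacnb3 (21.5), Cacng4 (18.2), Kcnj2 (8.49) and Kcne1l (6.29). Cacng7 was above Cacnb3 in 9 of 9 libraries and above Cacna1g in 8 of 9. Cacna1g was below Cacnb3 in the 3 E10.5 libraries and above it in the 6 later ones, although their ranges at E12.5 overlapped (21.5 to 32.9 and 17.9 to 27.1 CPM per kilobase). Cacng7 lies at chr7:3332955-3368221 and measured 68.8, 70.7 and 46.8 CPM at E10.5, 70.0, 67.3 and 70.5 CPM at E11.5 and 95.5, 70.5 and 63.1 CPM at E12.5. The stages overlapped, and its log2 fold change from E10.5 to E12.5 was 0.31 (-0.13 to 0.75 within 2 SE). Kcnk1, a two-pore channel of the resting potassium leak, was at 13.3 ± 3.38, 11.03 ± 0.842 and 12.6 ± 1.31 CPM (mean ± SD, n = 3 at each stage), also with overlap between stages.

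**Figure D1:**
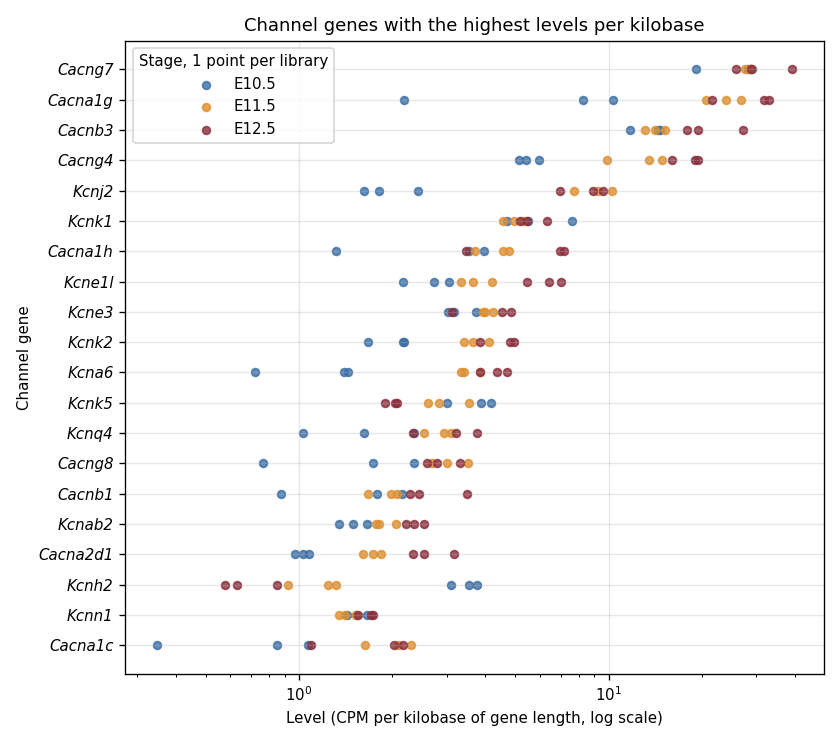
Level in CPM per kilobase of gene length (log scale) of the 20 detected channel genes with the highest mean, 1 point per library, coloured by stage. Cacng7, Cacna1g, Cacnb3 and Cacng4 lead, and the E10.5 points of Cacna1g are spread from 22.1 to 105 CPM before division by length.

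The question asked of each pair of stages was which channel genes changed, using the quasi-likelihood F-test of edgeR, with p adjusted by Benjamini-Hochberg over all genes tested. A gene was called when its adjusted p was at most 0.05 and its level changed by 1 or more on the log2 scale in either direction. From E10.5 to E11.5, 11 of 71 channel genes tested rose (15.5%) and 4 fell (5.63%), where 3.46% and 2.61% of all 15708 genes tested were called. From E11.5 to E12.5, 5 of 77 rose (6.49%) and 2 fell (2.6%), beside 4.14% and 0.962% of all 15808 genes. Over the whole span from E10.5 to E12.5, 26 of 80 rose (32.5%) and 5 fell (6.25%), beside 9.97% and 5.08% of all 15899 genes. The median log2 fold change of the channel genes tested was 0.27, 0.28 and 0.60 in these 3 comparisons, beside -0.03, 0.02 and -0.01 over all genes. These are shares and medians set side by side without a test of the list. In these bulk samples fewer cells of a type and less RNA per cell cannot be told apart.

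The counts of channel genes called depended on single libraries. The shares of all genes called in these fits are not given here. The counts therefore do not show whether channel genes depended on single libraries more than other genes did. From E10.5 to E11.5 they were 16 up and 6 down without E10.5 replicate 3, 7 up and 2 down without E10.5 replicate 2, and 5, 6 and 4 up and 2 down without E11.5 replicates 1, 2 and 3. From E11.5 to E12.5, 3 rose without any single E11.5 library or E12.5 replicate 1, and in these 4 fits edgeR called 0 down, with 7 to 8 lower at an unadjusted p under 0.05, while 8 fell without E12.5 replicate 2. From E10.5 to E12.5, 19 to 24 rose when 1 library was left out, and 3 fell without E10.5 replicate 2 or E12.5 replicate 1 and 8 without E10.5 replicate 3. The 3 libraries of one stage lay wholly above the 3 of the other in 39 of 71 channel genes (54.9%) from E10.5 to E11.5, beside 36.7% of all genes. The same held for 30 of 77 (39%) from E11.5 to E12.5, beside 35.3%, and for 43 of 80 (53.8%) from E10.5 to E12.5, beside 42.4%. In the test of the 3 stages together, 37 of 83 channel genes passed (44.6%), beside 28.3% of all 16375 genes. Of the 84 detected genes, 35 were called in at least 1 pair of stages and 40 were tested in all 3 pairs without a call. Cacnb3, Kcnab2 and Kcnk5 passed the test of the 3 stages without a call in any pair.

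**Figure D2:**
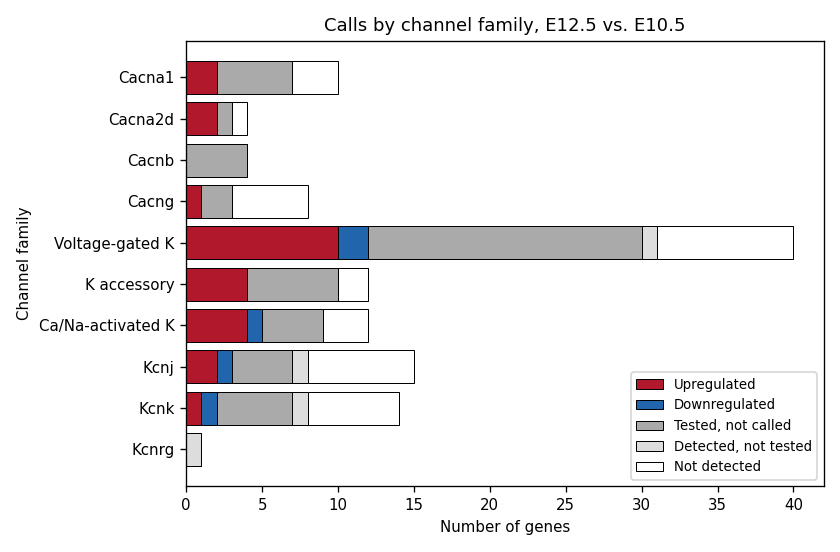
Number of channel genes per family by their call from E10.5 to E12.5. Red marks upregulated, blue downregulated and dark gray tested but not called genes, while light gray genes were detected but not tested and white genes were not detected. The voltage-gated potassium channels hold 10 of the 26 upregulated genes and 30 of the 80 tested.

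Among the pore-forming calcium channel genes, 2 of 7 tested rose from E10.5 to E11.5 (28.6%, beside 15.5% of channel genes and 3.46% of all genes tested). Over all 17 Cacn genes tested from E10.5 to E12.5, edgeR called 5 up (29.4%, beside 32.5% of channel genes and 9.97% of all genes tested). It called 0 down, beside 6.25% of channel genes and 5.08% of all genes, with 1 lower at an unadjusted p under 0.05. DESeq2 also called 0 down. Cacna1g (chr11:94408391-94474198, minus strand) measured 105, 83.5 and 22.1 CPM at E10.5, 271, 209 and 243 CPM at E11.5 and 333, 321 and 218 CPM at E12.5. The E10.5 libraries were all below the later ones, with replicate 3 the lowest. The log2 fold change from E10.5 was 1.78 ± 0.47 (SE) at E11.5 (adjusted p = 0.0454) and 2.06 ± 0.44 at E12.5 (adjusted p = 0.00655), and without E10.5 replicate 3 it was 1.36 and 1.64, both called. The E11.5 call was lost without E10.5 replicate 2 or any single E11.5 library (adjusted p = 0.0944 to 0.168). Cacna1c, the L-type pore, measured 22.6, 17.9 and 7.37 CPM at E10.5, 48.7, 34.6 and 44.4 CPM at E11.5 and 42.8, 45.9 and 23.1 CPM at E12.5. Its E10.5 libraries lay below those of both later stages, which overlapped each other. The log2 fold change from E10.5 was 1.42 ± 0.35 at E11.5 (adjusted p = 0.0386, 1.07 and called without E10.5 replicate 3) and 1.23 ± 0.37 at E12.5 (adjusted p = 0.0338). The E11.5 call was lost without E10.5 replicate 2 or any single E11.5 library (adjusted p = 0.078 to 0.16), and the E12.5 call without E10.5 replicate 3 (log2 fold change 0.89) or without E12.5 replicate 1 or 2 (adjusted p = 0.119 and 0.122). Cacna1h, another T-type pore, measured 34.6, 38.7 and 12.8 CPM at E10.5 and 67.9, 70.1 and 33.8 CPM at E12.5, and its log2 fold change of 1.01 ± 0.38 missed the threshold (adjusted p = 0.0787). It was 0.66 without E10.5 replicate 3 (adjusted p = 0.101), and Cacna1h was called without E10.5 replicate 2 (1.27, adjusted p = 0.0374), with the replicate block (1.08, adjusted p = 0.00223) and with all genes of at least 1 count (1.02, adjusted p = 6.39e-05).

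From E10.5 to E12.5, the accessory calcium channel genes held the largest fitted rise among the channel genes that were above the floor at every stage. Cacna2d3 (chr14:28904943-29721864, minus strand) encodes an alpha2-delta subunit, an extracellular protein that raises the number of channels at the membrane. It measured 0.713, 0.929 and 0.434 CPM at E10.5, 7.43, 3.80 and 6.53 CPM at E11.5 and 17.4, 18.2 and 15.7 CPM at E12.5. No libraries of different stages overlapped, and it was the only channel gene called up in all 3 comparisons, 8.45-fold to E11.5 (adjusted p = 0.0029), then 2.88-fold (adjusted p = 0.00171), and 24.5-fold over the whole span (log2 fold change 4.61 ± 0.31, adjusted p = 3.25e-06). Cacna2d1, the subunit bound by gabapentin, rose from 12.7 ± 0.648 CPM at E10.5 to 33.2 ± 5.36 CPM at E12.5 (mean ± SD, n = 3), with a log2 fold change of 1.39 ± 0.20 (adjusted p = 0.000547). Cacng4 measured 18.4, 21.3 and 19.3 CPM at E10.5, 53.3, 35.3 and 48.2 CPM at E11.5 and 69.4, 68.2 and 57.5 CPM at E12.5. Each stage lay wholly above the one before it, and the log2 fold change from E10.5 was 1.22 ± 0.17 at E11.5 (adjusted p = 0.00463) and 1.73 ± 0.18 at E12.5 (adjusted p = 6.03e-05). Of the 4 Cacnb genes, edgeR and DESeq2 called 0 from E10.5 to E12.5, and 2 were higher and 1 lower at an unadjusted p under 0.05 in edgeR. Of all genes tested, edgeR called 9.97% up and 5.08% down in that comparison. Cacnb3 measured 54.6 ± 6.52 CPM at E10.5 and 86.1 ± 19.8 CPM at E12.5 (mean ± SD, n = 3), a log2 fold change of 0.67 ± 0.20 (adjusted p = 0.0337) that was below the fold threshold.

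Among the inward rectifier genes, Kcnj2 and Kcnj12 moved in opposite directions within the first interval. Kcnj2 (chr11:111066164-111076821), which encodes the pore of a channel that holds the resting potential near that of potassium, measured 9.86, 8.82 and 13.2 CPM at E10.5. It then measured 50.2, 41.9 and 55.7 CPM at E11.5 and 48.5, 52.3 and 37.9 CPM at E12.5. The E10.5 libraries were far below the rest and the later stages overlapped. The rise to E11.5 was 4.65-fold (log2 fold change 2.22 ± 0.19, adjusted p = 0.00117), and from E11.5 to E12.5 the log2 fold change was -0.10 (-0.41 to 0.22 within 2 SE). Kcnj12, a close relative of Kcnj2 with a similar current, had 40, 17 and 32 counts at E10.5, 0, 1 and 2 counts at E11.5 and 1, 2 and 0 counts at E12.5. Every later library was at or under the floor of 3 counts, so the gene was at least 11.5-fold lower at E11.5 (adjusted p = 0.00488) and at least 10.5-fold lower at E12.5 (adjusted p = 0.000736). Kcnj3, a subunit of G protein-gated channels, rose from E10.5 to E12.5 with a log2 fold change of 2.39 ± 0.68 (adjusted p = 0.0266) on at most 29 counts in a library, and of 3.37 without E10.5 replicate 3 (adjusted p = 0.0119). That call was lost without E10.5 replicate 1 or 2 or E12.5 replicate 2 or 3 (adjusted p = 0.0638 to 0.114), and 31.1% of the exon length of Kcnj3 overlaps another gene. Kcnj8, the pore of the vascular ATP-sensitive channel, was not detected, with 10, 8 and 15 counts at E12.5 as its highest.

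**Figure D3:**
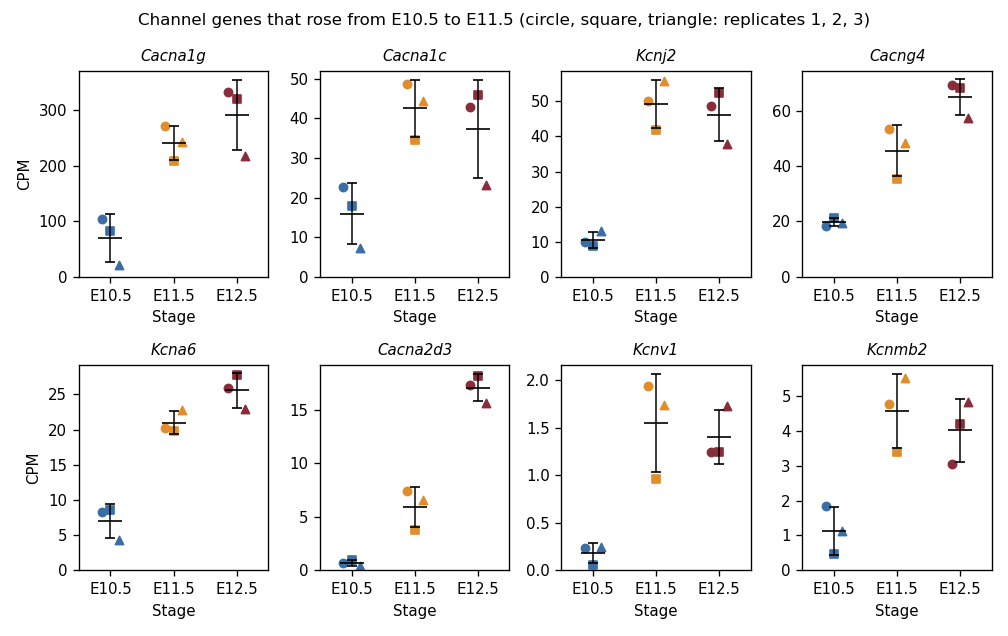
CPM by stage of 8 channel genes that rose from E10.5 to E11.5, with 1 symbol per library (circle, square and triangle for replicates 1, 2 and 3), a line at the mean and bars of 1 SD (n = 3). In Cacna1g and Cacna1c the E10.5 triangle, at 22.1 and 7.37 CPM, lies below the other 2 E10.5 libraries, while Kcnj2 and Cacng4 show no such gap.

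The voltage-gated potassium channel genes were the largest family, with 31 of 40 detected. From E10.5 to E12.5, 10 of 30 tested rose (33.3%, beside 32.5% of all channel genes and 9.97% of all genes tested). In the same comparison 2 fell (6.67%, beside 6.25% and 5.08%). Kcna6, a delayed rectifier, measured 8.32, 8.53 and 4.27 CPM at E10.5, 20.3, 19.8 and 22.8 CPM at E11.5 and 26.0, 27.8 and 22.9 CPM at E12.5. No libraries of different stages overlapped, and the log2 fold change from E10.5 was 1.58 ± 0.25 at E11.5 (adjusted p = 0.00777) and 1.87 ± 0.27 at E12.5 (adjusted p = 0.000632), or 1.32 and 1.61 without E10.5 replicate 3, while 39.6% of its exon length overlaps another gene. Kcnh3, of the ether-a-go-go family, measured 0.713, 0.581 and 0.619 CPM at E10.5, 0.915, 0.769 and 2.11 CPM at E11.5 and 6.76, 6.58 and 6.50 CPM at E12.5. All E12.5 libraries were above the others, and the rise was 5.22-fold from E11.5 (adjusted p = 0.00119) and 10.3-fold from E10.5 (log2 fold change 3.37 ± 0.30, adjusted p = 2.63e-05). Kcns2 and Kcnv1 encode subunits that form no channel alone and modify other voltage-gated channels. Kcns2 had 2, 1 and 2 counts at E10.5, 8, 21 and 14 at E11.5 and 31, 38 and 29 at E12.5, which puts E12.5 at least 10.3-fold above E10.5 (adjusted p = 0.00023). Its rise from E11.5 to E12.5 (log2 fold change 1.32 ± 0.36, adjusted p = 0.0382) was lost without any single E11.5 library or E12.5 replicate 1 or 3 (adjusted p = 0.0602 to 0.142). Kcnv1 had 4, 1 and 4 counts at E10.5, 36, 20 and 33 at E11.5 and 22, 23 and 29 at E12.5, with a log2 fold change to E11.5 of 3.05 ± 0.54 (adjusted p = 0.0112) that was lost without E11.5 replicate 1 or 3 (adjusted p = 0.0675 and 0.0609).

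Further voltage-gated genes rose from E10.5 to E12.5, and several of these calls depended on 1 library. Kcnq5, of the M-current family, rose by 1.31 and Kcns3 had 1, 3 and 0 counts at E10.5 and 19, 13 and 18 at E12.5, at least 5.29-fold higher. Kcna5 rose by 1.21, a call lost without E12.5 replicate 1 (adjusted p = 0.0704). Kcnb2 rose by 1.14 and Kcnh1 by 1.62, and these calls were lost without any of 4 libraries for Kcnb2 (E10.5 replicates 2 and 3, E12.5 replicates 1 and 2, adjusted p = 0.0671 to 0.164) and without any single library of the 6 for Kcnh1 (adjusted p = 0.0549 to 0.133). Without E10.5 replicate 3 the log2 fold changes were 0.98 for Kcnb2 and 1.48 for Kcnh1. Kcnd3 was called up at E11.5 (log2 fold change 1.24 ± 0.32, adjusted p = 0.0442), and Kcnc2 from E11.5 to E12.5 (log2 fold change 1.74 ± 0.46, adjusted p = 0.0318). The Kcnd3 call was lost without any single library of the 6 (without E10.5 replicate 3 the log2 fold change was 0.96), and the Kcnc2 call without any single library except E12.5 replicate 3 (adjusted p = 0.0566 to 0.134). Kcnq1 was detected at about 1 CPM at every stage, with a log2 fold change from E10.5 to E12.5 of 0.01 ± 0.50 (-0.31 without E10.5 replicate 3).

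Kcnh2, the pore of the rapid delayed rectifier that ends the cardiac action potential, fell across the stages. Its levels (chr5:24319589-24351604, minus strand) were 18.2, 17.2 and 15.1 CPM at E10.5, 4.47, 6.40 and 6.01 CPM at E11.5 and 3.04, 4.10 and 2.80 CPM at E12.5. Each stage lay wholly below the one before it. The fall was 2.98-fold to E11.5 (log2 fold change -1.58 ± 0.19, adjusted p = 0.0025) and 5.03-fold to E12.5 (log2 fold change -2.33 ± 0.24, adjusted p = 6.93e-05), while the step from E11.5 to E12.5 missed the threshold (-0.77, adjusted p = 0.0572). Kcna3, best known from lymphocytes, measured 2.26 ± 0.56 CPM at E10.5 and 0.497 ± 0.381 CPM at E12.5 (mean ± SD, n = 3), with a log2 fold change of -2.14 ± 0.58 (adjusted p = 0.0206) that was lost without E10.5 replicate 2 or E12.5 replicate 1 (adjusted p = 0.0501 and 0.0552). Kcng1, a silent modifying subunit, had 46, 43 and 50 counts at E10.5 and 14, 21 and 28 at E11.5. Its fall to E11.5 (log2 fold change -1.35 ± 0.31, adjusted p = 0.03) was lost without any single library except E10.5 replicate 3 (adjusted p = 0.0588 to 0.123).

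The 8 markers of neuroepithelium and eye, set beside these falls, were all called down from E10.5 to E11.5 (100%, beside 2.61% of all genes tested). Their summed level was 283 to 402 CPM at E10.5, 76.2 to 92.8 CPM at E11.5 and 79.3 to 94.1 CPM at E12.5. The highest count of Rax at E11.5 was 1. The part of these cells in the falls of Kcnh2, Kcnj12, Kcnk10 and Kcng1 was not tested.

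**Figure D4:**
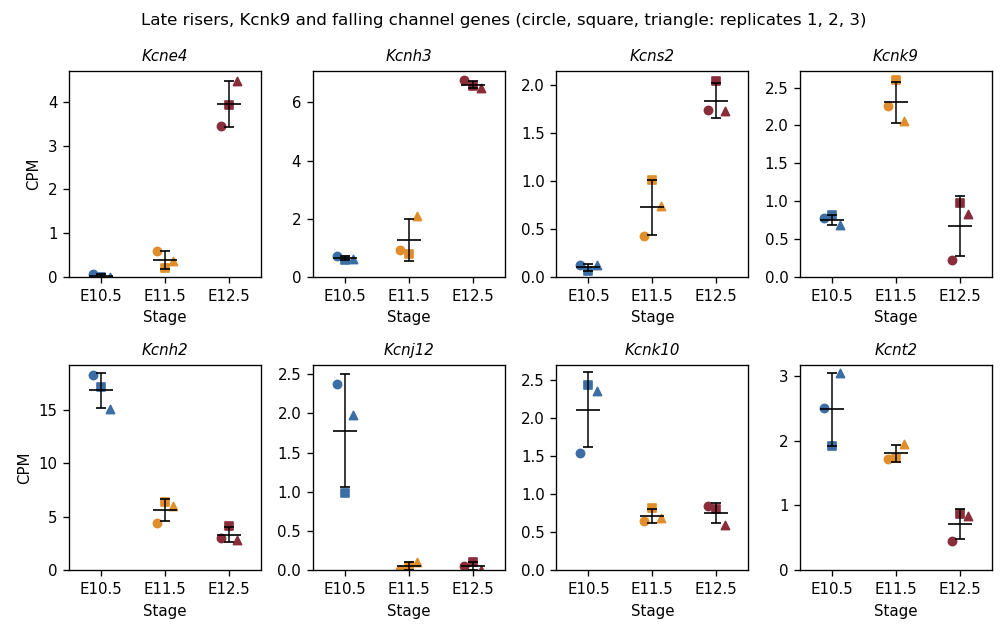
CPM by stage of 3 genes that rose late (Kcne4, Kcnh3, Kcns2), of Kcnk9 and of 4 genes that fell, with 1 symbol per library (circle, square and triangle for replicates 1, 2 and 3), a line at the mean and bars of 1 SD (n = 3). Kcnk9 is highest at E11.5, at 2.05 to 2.60 CPM, and Kcnj12 is near 0 after E10.5.

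The two-pore genes, which carry the resting leak, moved in both directions. Kcnk9 measured 0.773, 0.813 and 0.681 CPM at E10.5, 2.26, 2.60 and 2.05 CPM at E11.5 and 0.225, 0.971 and 0.835 CPM at E12.5. Its E11.5 libraries lay above those of both other stages, and it was the only channel gene called up and then down, by 1.60 ± 0.28 (adjusted p = 0.0112) and -1.76 ± 0.42 (adjusted p = 0.0224) on the log2 scale. Both calls were lost without any single E11.5 library, and the second also without E12.5 replicate 1 (adjusted p = 0.0521 to 0.0857 over the 7 fits). Kcnk2, a mechanically gated channel, measured 10.8, 10.7 and 8.24 CPM at E10.5 and 24.5, 23.8 and 19.0 CPM at E12.5. These stages did not overlap and the log2 fold change was 1.19 ± 0.21 (adjusted p = 0.00235). Kcnk10, a close relative of Kcnk2, fell from 26, 42 and 38 counts at E10.5 to 12, 17 and 13 at E11.5 (log2 fold change -1.55 ± 0.32, adjusted p = 0.0203) and 15, 15 and 10 at E12.5 (-1.47 ± 0.39, adjusted p = 0.018). The first of these calls was lost without E10.5 replicate 2 or any single E11.5 library (adjusted p = 0.0674 to 0.105), and the second without E10.5 replicate 2 or E12.5 replicate 1 or 3 (adjusted p = 0.0582 to 0.0749).

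The calcium- or sodium-activated potassium channel genes were grouped by symbol (Kcnma, Kcnmb, Kcnn, Kcnt and Kcnu). From E10.5 to E12.5, 4 of 9 tested rose (44.4%, beside 32.5% of channel genes and 9.97% of all genes tested). In the same comparison 1 fell (11.1%, beside 6.25% and 5.08%). Kcnma1, the pore of the large-conductance BK channel, measured 0.416, 1.05 and 1.12 CPM at E10.5, 2.48, 2.07 and 1.58 CPM at E11.5 and 2.76, 3.88 and 1.85 CPM at E12.5. The log2 fold change to E12.5 was 1.72 ± 0.45 (adjusted p = 0.0175) and was lost without E10.5 replicate 1 or E12.5 replicate 1 or 2 (adjusted p = 0.0509 to 0.0724), and the rise to E11.5 was called only without E10.5 replicate 3 (1.47, adjusted p = 0.016) or with the GC trend removed (1.24, adjusted p = 0.0499). Of the genes of the BK beta subunits, which tune its calcium response, Kcnmb2 and Kcnmb4 rose, while Kcnmb1 and Kcnmb3 were not detected. Kcnmb2 measured 1.14 ± 0.689 CPM at E10.5, 4.58 ± 1.07 CPM at E11.5 and 4.03 ± 0.907 CPM at E12.5 (mean ± SD, n = 3). Its rise from E10.5 to E11.5 (adjusted p = 0.0237) was lost without any single E11.5 library (adjusted p = 0.0519 to 0.109). The Kcnmb2 rise from E10.5 to E12.5 (adjusted p = 0.0125) was lost without E12.5 replicate 3 (adjusted p = 0.0598). Kcnmb4 rose from 2.67 ± 0.0608 to 6.90 ± 2.31 CPM between E10.5 and E12.5 (mean ± SD, n = 3). The log2 fold change was 1.37 ± 0.31 (SE, adjusted p = 0.00894). However, 31.5% of the exon length of Kcnmb4 overlaps antisense genes, and the strand setting of the counting is not given in the sources used here. Kcnu1, placed in this group by its symbol and not by its gating, had 3, 2 and 3 counts at E10.5. It had 21, 16 and 20 counts at E12.5, at least 6.02-fold higher. Kcnt2, a sodium-activated channel, fell from 42, 33 and 49 counts at E10.5 and 32, 36 and 37 at E11.5 to 8, 16 and 14 at E12.5, a log2 fold change of -1.77 ± 0.40 over the whole span (adjusted p = 0.00887) and -1.33 ± 0.35 from E11.5 (adjusted p = 0.0316). The call from E11.5 was lost without any single E11.5 library or E12.5 replicate 1 (adjusted p = 0.0842 to 0.112).

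Among the accessory potassium channel genes, 4 of 10 tested rose from E10.5 to E12.5 (40%, beside 32.5% of channel genes and 9.97% of all genes tested). Kcne4 (chr1:78816758-78820028), a single-pass subunit that inhibits Kcnq and Kcna channels, had 1, 0 and 0 counts at E10.5, 11, 4 and 7 at E11.5 and 61, 73 and 75 at E12.5. No libraries of different stages overlapped, and the gene was 10.2-fold higher at E12.5 than at E11.5 (log2 fold change 3.35 ± 0.37, adjusted p = 0.000316) and exceeded E10.5 at least 22.01-fold (adjusted p = 2.44e-05). Kcne1l rose by 1.25, Kcnip3 by 1.09 and Kcnip2 by 1.77 on the log2 scale from E10.5 to E12.5. The Kcnip3 call was lost without E10.5 replicate 1 (log2 fold change 0.99) or E12.5 replicate 1 (adjusted p = 0.0585), and the Kcnip2 call without E10.5 replicate 1 or 2 or E12.5 replicate 1 or 3 (adjusted p = 0.0513 to 0.081).

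**Figure D5:**
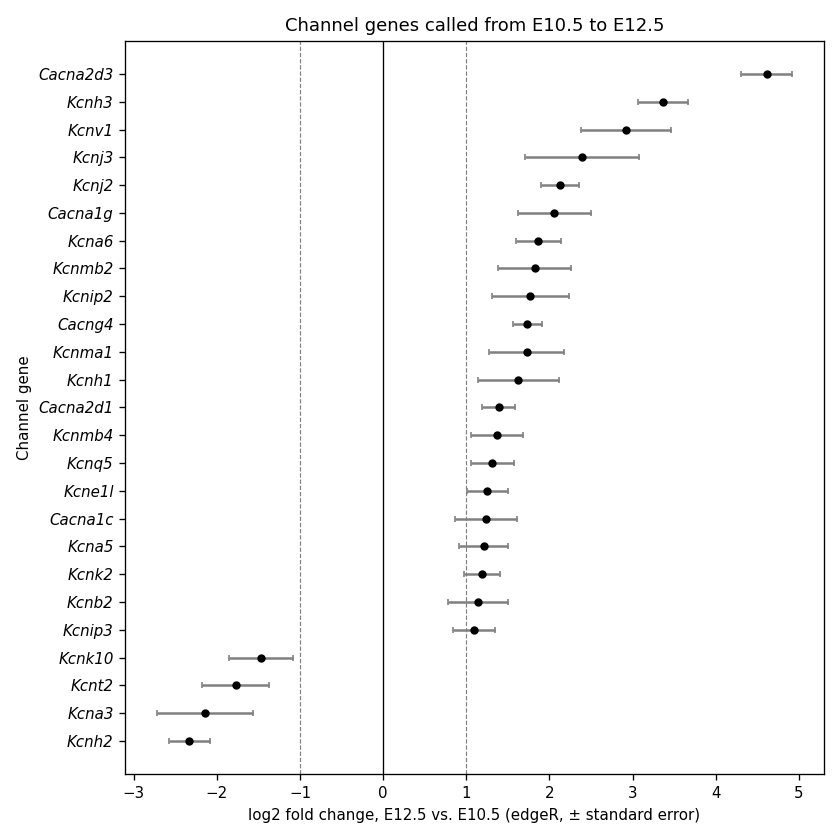
Fitted log2 fold change from E10.5 to E12.5 with its standard error for 25 of the 31 channel genes called (21 up, 4 down), with dashed lines at a change of 1 in each direction. The 5 genes at or under 3 counts in every library of a stage (Kcne4, Kcns2, Kcns3, Kcnu1, Kcnj12) are left out because their fitted change is no bound, 1 more gene is not shown, and Cacna2d3 lies highest, at 4.61.

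The 12 neuron markers and 7 neural crest glia markers are set beside the late rises. Their summed levels were 277 to 328 and 65.5 to 82.4 CPM at E10.5 and 453 to 510 and 90.9 to 125 CPM at E12.5. From E10.5 to E12.5, 2 of 12 neuron markers rose (16.7%, beside 9.97% of all genes), and 5 of 7 glia markers rose (71.4%) and 1 fell (14.3%, beside 5.08%). For facial mesenchyme 3 of 8 markers rose and 1 fell. Their sum was 1917, 1920 and 1139 CPM in E10.5 replicates 1, 2 and 3 and 2630 to 2944 CPM at E12.5. For cartilage and bone 4 of 7 tested rose and 1 fell. Their sums were 877, 1015 and 596 CPM in E10.5 replicates 1, 2 and 3 and 584 to 780 CPM at E12.5, and the stages overlapped. Of 7 erythrocyte markers 3 rose and 1 fell, with sums of 2828 to 3817 and 4313 to 5585 CPM. Of smooth muscle, epithelium and macrophage markers tested, 2 of 5, 1 of 7 and 1 of 6 rose, and 1 epithelium marker fell (14.3%). Of endothelium and skeletal muscle markers tested, edgeR called 0 of 6 and 0 of 5 in either direction. The part of a change in cell types in the rises of the channel genes was not tested.

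Genes that act with these channels were described from lists set by their known roles. Of 21 partners and regulators, 18 were detected. From E10.5 to E11.5, edgeR and DESeq2 called 0 of 14 tested, with 1 higher and 2 lower at an unadjusted p under 0.05 in edgeR. Of all genes tested in that comparison, edgeR called 3.46% up and 2.61% down, so a count of 0 among so few genes shows little. From E10.5 to E12.5, 5 of 18 rose (Stac, Rem1, Gem, Rrad and Dpp10), which is 27.8% beside 9.97% of all genes. Rem1, Gem and Rrad encode small GTPases that inhibit voltage-gated calcium channels, and their log2 fold changes were 2.08 ± 0.47, 2.13 ± 0.40 and 1.87 ± 0.47. Stac, which binds L-type channels, rose by 2.27 ± 0.40. Of 38 genes of membrane potential and calcium handling, 4 of 34 tested rose from E10.5 to E12.5 (among them Ryr2, Orai2 and Scn3b) and 4 fell (among them Scn11a and Scn4b). Each of these shares was 11.8%, beside 9.97% and 5.08% of all genes, and the share that rose was near that background. The summed level of the 38 genes was lower at E12.5 (738 to 948 CPM) than at E10.5 (1048 to 1212 CPM). Ryr2, the calcium release channel of the endoplasmic reticulum, rose by 3.44 ± 0.36 (adjusted p = 7.61e-05).

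The 36 channel genes that were not detected had at most 38 counts in a library, and Kcna10, Kcnk15, Kcnk16 and Kcnk18 had 0 counts in all 9. The Cacn genes not detected were Cacna1f, Cacna1i, Cacna1s, Cacna2d4, Cacng1, Cacng2, Cacng3, Cacng5 and Cacng6. They include Cacna1s and Cacng1, the pore and gamma subunit of the skeletal muscle channel. The Kcn genes not detected, beside those with 0 counts, were Kcna1, Kcna2, Kcna4, Kcna7, Kcne1, Kcne2, Kcng3, Kcng4, Kcnh5, Kcnj1, Kcnj4, Kcnj6, Kcnj8, Kcnj9, Kcnj13, Kcnj16, Kcnk4, Kcnk7, Kcnk12, Kcnmb1, Kcnmb3, Kcns1 and Kcnt1. Counts this low do not show that a gene is absent from the tissue.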

How the data were processed

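RNA-seq was measured in 9 libraries of pooled C57BL/6J lambdoidal junction tissue, 3 per stage. The authors used HISAT2 (version 2.0.5) to map reads to GRCm38/mm10 and featureCounts to count them per gene, and deposited raw counts. Strand and multi-mapping settings are not given in the sources used here. The deposited FPKM values, which the authors computed from counts and gene length, were only inspected, and the authors' group means, fold changes and p-values were not used. Counts were tested with edgeR 4.0.16 in R 4.3.3 (filterByExpr, TMM, quasi-likelihood F-test, Benjamini-Hochberg over all genes), on the 6 libraries of each pair and on all 9. DESeq2 1.42.0, other scalings, filters and left-out libraries were alternatives. CPM values use TMM-scaled library sizes, and the script was tested on simulated data. Intervals are 2 standard errors on each side. A level with 3 or fewer counts in every library of a stage was taken at that floor, which covers counting error only. P-values measure the spread between pooled libraries. The members and lists were chosen with earlier results of these data known. Genes given in full were the 6 per comparison and direction with the smallest p among called genes whose stages did not overlap, the 6 highest per kilobase, and a fixed list of principal subunits. Some genes and 1 sequence are not reported here, though counts of calls include them.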

Additional observations from a re-analysis of the deposited data

Results flagged for a closer look

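Antisense genes named after channel genes were no members, and 2 of the 5 had more than 3 counts in a library. Kcnq1ot1, the antisense transcript of the Kcnq1 locus, was at 19.0 CPM at E10.5 (mean, SD 8.43, n = 3) and was called in no pair of stages. Kcnq1 itself was at 1.01 CPM at E10.5. The gene lengths differ (93092 bases for Kcnq1ot1 and 4093 for Kcnq1), and per kilobase the E10.5 means were 0.204 and 0.246 CPM. Kcnmb4os2, which overlaps Kcnmb4, was at 4.81 CPM at E12.5 (SD 1.31, n = 3) and rose from E10.5 with a log2 fold change of 1.67 ± 0.33 (adjusted p = 0.00419). Reads of Kcnmb4 and Kcnmb4os2 cannot be told apart if the counting did not use strand, and this was not tested.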

How the results depend on the processing

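No called fold change changed sign under any alternative run. Of the calls, 6 of 15 from E10.5 to E11.5, 3 of 7 from E11.5 to E12.5 and 20 of 31 from E10.5 to E12.5 were kept in every alternative in which the gene was tested. Some calls were also lost with all libraries kept. From E10.5 to E12.5 these were Kcnh1 in DESeq2 (adjusted p = 0.076) and Kcnb2 with the GC trend removed (0.0535). At E11.5 they were Kcnd3 with the replicate block (0.076) and Cacna1g with at least 10 counts in every library (0.0518). From E11.5 to E12.5, Kcnc2 and Kcns2 were lost in the fit on all 9 libraries (0.0666 and 0.0551). With at least 10 counts in every library, fewer genes were tested, and 2 rose and 0 fell from E11.5 to E12.5, 16 rose and 2 fell from E10.5 to E12.5, and 24 passed the test of the 3 stages. Under that filter 53 channel genes were detected in all 9 libraries. From E11.5 to E12.5, 8 rose with all genes of at least 1 count, 3 with one fit on all 9 libraries and 9 without a fold threshold. Leaving out 1 library gave 4 to 16 up and 2 to 6 down from E10.5 to E11.5, 3 to 7 up and 0 to 8 down from E11.5 to E12.5, and 19 to 24 up and 3 to 8 down from E10.5 to E12.5. Same-numbered libraries of different stages had correlations of -0.151 to 0.22 in their deviations from the stage mean, and differently numbered ones -0.219 to 0.223. Between E10.5 and E12.5 the same-numbered values were 0.178, 0.07 and 0.22, and the others -0.219 to 0.153. Same-numbered values of the remaining stage pairs were -0.151 to 0.074. These values cannot settle whether the numbers pair libraries, and the main tests used no pairing. A replicate block gave 10 up and 4 down, 7 up and 3 down, and 27 up and 7 down in the 3 comparisons, and 39 genes in the test of the 3 stages. Removal of the GC trend, chosen after seeing the data, gave 14 up and 5 down, 5 up and 2 down, and 25 up and 6 down. The shares of all genes called in these alternative runs are not given here, so the counts describe the channel genes alone. Genes with few counts limit what could be called.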

Other observations

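Kcnj13, Kcne2 and Ttr, chosen after their values were seen, had counts in the same 2 of 3 E12.5 libraries. Kcnj13 had 13, 38 and 0 counts in E12.5 replicates 1, 2 and 3, and Kcne2 had 12, 16 and 0. Ttr, which encodes transthyretin and is no channel gene, had 268, 870 and 0 counts in these libraries and at most 3 in any earlier one. The cause was not tested. The summed level of the 84 detected channel genes was 512 ± 105 CPM at E10.5, 858 ± 81.0 CPM at E11.5 and 1032 ± 179 CPM at E12.5 (mean ± SD, n = 3). Without Cacna1g it was 442 ± 62.2, 617 ± 52.5 and 741 ± 116 CPM. E10.5 replicate 3 lowered the E10.5 means. The sums in E10.5 replicates 1, 2 and 3 were 591.9, 550.5 and 392.6 CPM, and 486.8, 467.0 and 370.5 CPM without Cacna1g.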
